A study of Phanerodontia chrysosporium with 12 samples.

Results

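Mycelium of Phanerochaete chrysosporium collected 6 h after the addition of oak extractives was compared directly with mycelium collected after 1 h. The comparison rests on 6 of the 12 RNA-seq libraries of the study, 3 at 6 h and 3 at 1 h, chosen by the time in their labels. All 12 cultures were of the homokaryon RP78, a single strain, kept still at 37 °C for 4 days in 20 ml of minimal medium. All 12 then received an acetone extract of Quercus petraea heartwood at 100 µg/ml, from a stock of 200 mg/ml in DMSO. The 3 cultures called T0 were also treated and were harvested at once, so they mark the start of the exposure and not an untreated state. The other 3 libraries were taken at 3 h. No culture given DMSO alone was analysed here, so hours of exposure and hours of further culture cannot be told apart.

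Phanerochaete chrysosporium is a white-rot fungus, one of the basidiomycetes able to break down the lignin of wood. Oak heartwood holds phenolic compounds, among them ellagitannins, that hinder the growth of many wood-decay organisms. White-rot fungi are known to meet such compounds with enzymes that oxidise or conjugate them, such as cytochrome P450 monooxygenases and glutathione transferases, and with transporters that export them. The comparison of a late with an early time asks which transcripts of the first hour had moved by 6 h, and in which direction. The deposited tables list 13602 gene models by a numeric protein ID and pair none of them with a gene name. For this reason the models are described by level, time course, length and share of the reads, and the label mycelium was not checked against marker genes.

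Total gene reads were 6999282, 2137932 and 3002663 in the 1 h replicates 1 to 3 and 6284822, 5433973 and 9291797 in the 6 h replicates 1 to 3. A pair of short models, 650 nt and 156 nt long, took up many reads and held 9.61%, 65.9% and 45.0% of these reads at 1 h and 15.6%, 10.9% and 18.2% at 6 h. The mean share of the pair was 40.2% at 1 h, with an SD of 28.4 over 3 libraries, and 14.9% at 6 h, with an SD of 3.74. The groups overlapped, because 1 h replicate 1 lay below all 3 libraries at 6 h, and a 2-sided exact permutation test gave p = 0.4, where the smallest p possible with 3 against 3 is 0.1. The pair is left out of all read shares that follow. Without it, 729521 reads remained in 1 h replicate 2, the shallowest library, and 7596968 in 6 h replicate 3, the deepest of the 6. Levels are given in CPM, read counts scaled to a common library size after TMM normalisation. A count of 0 then allows a level of up to 2.90 CPM in the shallowest and 0.300 CPM in the deepest, from 3 counts and for counting error only. The deepest, 6 h replicate 3, also listed at 0 many IDs that its other replicates placed well above 0, as given below. For those zeros 0.300 CPM is not an upper bound.

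The table of 6 h replicate 3 stood apart at low reads. It listed 116 IDs at 1 to 5 reads and 2296 at 0, whereas 6 h replicate 1, with fewer reads, listed 771 and 947. For each library, the other 2 replicates of its time gave the reads that an ID would have at their level. Of the 739 IDs placed at 10 to under 20 reads in this way, 6 h replicate 3 listed 43.7% at 0. The share was 6.79% of 943 IDs in 6 h replicate 2 and between 0.269% and 1.01% in the remaining 4 libraries. At 50 to under 100 reads, 3.60% of 1418 IDs were at 0 in 6 h replicate 3. A 0 in that table was not taken to show absence, but it entered the fit, the mean levels and the SDs as a count of 0.

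**Figure D1:**
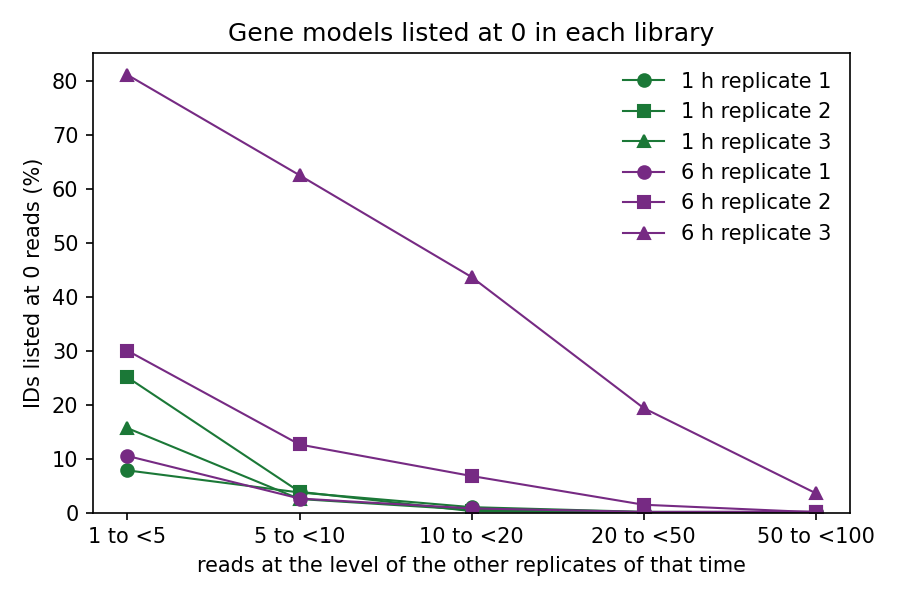
Percent of gene models listed at 0 reads (vertical axis) in each of the 6 libraries, by the number of reads they would have at the level of the other 2 replicates of that time (horizontal axis, 5 bins). The line of 6 h replicate 3 lies above the other 5 in every bin, from 81.2% at 1 to under 5 reads to 3.60% at 50 to under 100 reads.

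Between 1 h and 6 h, 320 gene models rose and 261 fell. In such bulk RNA, fewer cells of a kind and less RNA per cell cannot be told apart. These 581 models are 4.92% of the 11813 tested (2.71% higher and 2.21% lower). A model was called when edgeR's quasi-likelihood F test gave it a p under 0.05 after adjustment over all tested models by the method of Benjamini and Hochberg, and every edgeR p below is adjusted in this way. Among the 320 that rose the log2 fold change had its median at 1.48 and its quartiles at 1.22 and 1.93. Among the 261 that fell the median was -1.58, with quartiles of -2.15 and -1.25. The median over all tested models was 0.00, with quartiles of -0.41 and 0.42. At least 4-fold changes were seen in 72 of the models that rose and in 79 of those that fell, and at least 16-fold changes in 1 and 8. The 3 libraries at 6 h lay wholly above the 3 at 1 h for 319 of the models that rose, and wholly below for 257 of those that fell. Of all tested models, 24.2% had 1 of these properties, 12.6% with 6 h above and 11.6% with 6 h below. The models were called on these same libraries, so their lack of overlap largely follows from the choice.

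The number of calls depended on single libraries. Leaving out 1 h replicate 1 gave 253 calls and leaving out 1 h replicate 3 gave 230. Leaving out 6 h replicate 2 or 3 gave 383 or 373. Without 1 h replicate 2 it was 397, of which 188 were higher at 6 h. Over the 6 fits that each left out a library of the comparison, 174 of the 581 models were called every time (93 higher and 81 lower) and no model changed direction. The models called have about equal numbers in both directions under each of these fits, with the share of higher ones between 47.4% and 59.5%. DESeq2 called 1028 models, 577 of the 581 among them.

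**Figure D2:**
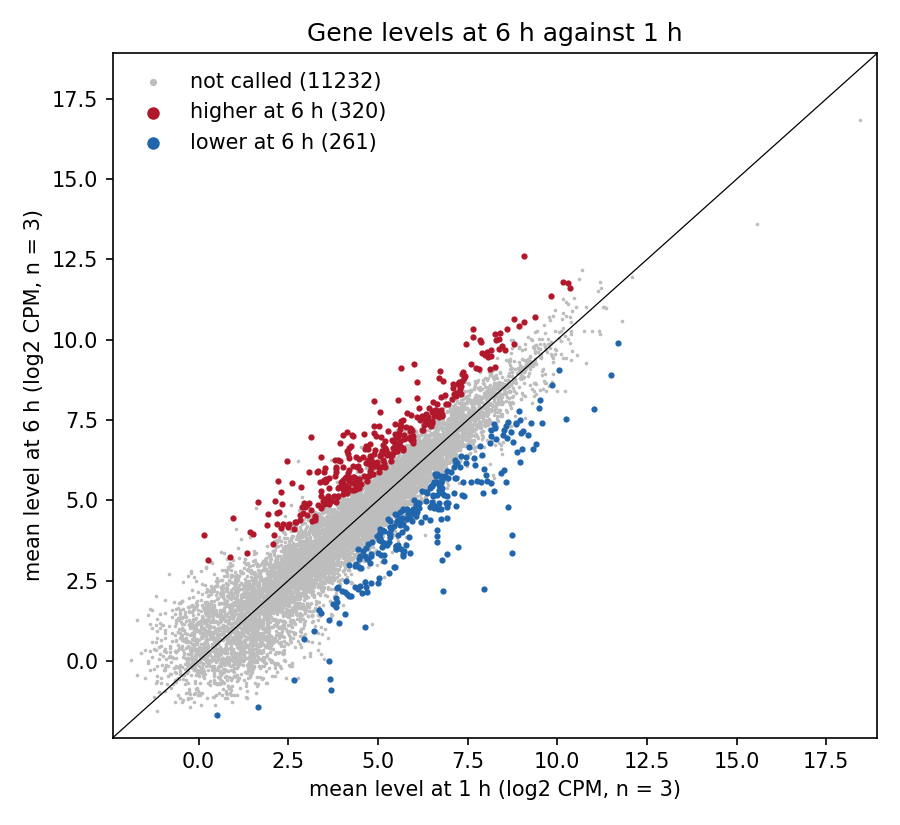
Mean level of each tested gene model at 6 h (vertical axis) against 1 h (horizontal axis), both in log2 CPM over 3 libraries, with the line of equal level. The 320 models that rose and the 261 that fell are coloured and spread over most of the range of levels above the lowest, and 11232 models were not called.

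Calls were most frequent among abundant transcripts. With the tested models cut into 4 equal parts by their mean level over the 12 libraries, 6.06% of the most abundant part were higher and 3.73% lower at 6 h, against 0.102% and 0.406% of the least abundant part. The spread between replicates differed the same way, with a median SD of log2 CPM at 1 h of 0.288 in the most abundant part and 0.778 in the least abundant. At 6 h these medians were 0.251 and 0.809. Over all tested models the median SD was 0.398 at 1 h and 0.376 at 6 h, so both sides of the comparison were measured with about the same spread. The median level was 65.2 CPM for the models that rose and 46.3 CPM for those that fell, against 22.9 CPM for all tested. Of the 261 models that fell, 6 were listed at 0 in 6 h replicate 3, as were 707 of all tested models. Among these, 3 of the 6 and 652 of the 707 had reads in both other 6 h libraries. No model had reads in all 3 libraries of one time and none in any library of the other.

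The models that rose had a median length of 1339 nt, those that fell 1146 nt and all tested 1275 nt. The median log2 fold change of all models, called or not, went from -0.11 in the shortest of 4 equal parts (153 to 858 nt) to 0.08 in the longest (1830 to 14622 nt). Call rates differed with length, from 2.03% higher and 1.29% lower in the longest part to 4.07% higher in the third and 2.75% lower in the second. With each library's trend on length removed, 481 models were higher and 409 lower at 6 h, so the number of calls went up with about the same split. The part of length in any one call was not tested. Reads shared with another model made up over 10% of the reads of 8 models in each set, and of 389 of all 11813 tested models. For such models the counting of the authors could split reads between copies.

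The 320 models that rose held 3.82%, 3.63% and 3.52% of the reads outside the pair in the 1 h replicates and 9.78%, 12.7% and 10.6% in the 6 h replicates. The 261 that fell held 5.90%, 6.00% and 7.08% at 1 h and 1.80%, 1.58% and 1.79% at 6 h. Those sums follow from the choice of the models and carry no test. The levels at T0 and 3 h had no part in the choice, although those libraries entered the estimate of spread. At T0 the first set held 6.55%, 5.63% and 7.11%, and the second 3.29%, 3.31% and 2.92%, in between the 1 h and the 6 h values for both. At 3 h they held 9.99%, 9.70% and 10.2%, and 2.00%, 2.06% and 1.86%. The 3 h and 6 h libraries overlapped in the share of the set that rose, and in that of the set that fell each 3 h library was a little above all 3 at 6 h. Few models carried much of this movement, since 21 models made up 50% of the change of each set. The 10 models that moved most made up 35.4% of the gain and 36.4% of the loss.

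Most of the change had taken place by 3 h. On a line from the mean log2 CPM at 1 h (place 0) to that at 6 h (place 1), the 3 h libraries had a median place of 0.86 for the models that rose (quartiles 0.70 and 0.97) and 0.88 for those that fell (quartiles 0.68 and 1.03). Over all tested models this median was not far off, at 0.80, but the quartiles were much wider, at 0.17 and 1.37. The 3 h level was nearer to 6 h than to 1 h for 298 of 320 and 236 of 261 models, or 93.1% and 90.4%, against 63.8% of all tested. It went past the 6 h level for 68 and 78 models. Each 3 h library gave the same picture, with 84.7%, 90.9% and 87.5% of the models that rose nearer to the 6 h mean in replicates 1 to 3, and 89.7%, 79.7% and 92.0% of those that fell. The mean log2 CPM at 3 h of the remaining 22 and 25 models was nearer to 1 h. Between 3 h and 6 h the 320 models had a median log2 fold change of 0.24 and the 261 models one of -0.17. None of the 581 passed the same edgeR test for that interval, and neither did any other of the 11813 tested models. These contrasts share the 1 h or the 6 h libraries with the main one, so they are set side by side only.

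**Figure D3:**
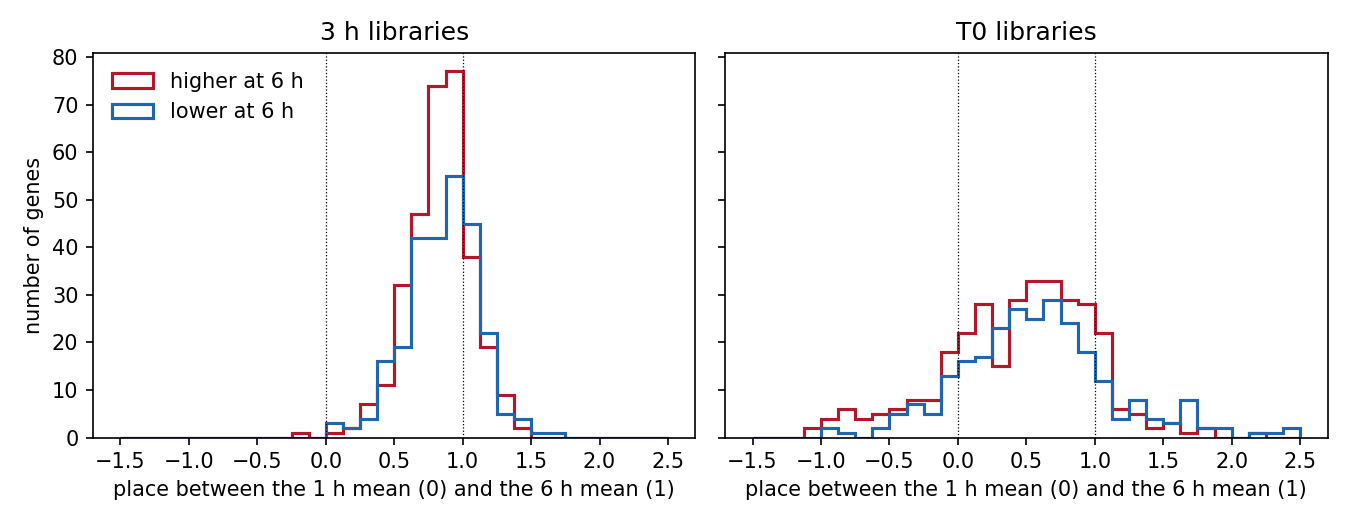
Number of gene models (vertical axis) by the place of the 3 h mean (left) and the T0 mean (right) on the line from the 1 h mean at 0 to the 6 h mean at 1, for models higher and lower at 6 h, with values beyond the axis put in the end bins. The 3 h places crowd just below 1, with medians of 0.86 and 0.88, while the T0 places spread widely around medians of 0.51 and 0.56.

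The start of the exposure lay between the 2 times for many of these models. T0 had a median place of 0.51 for the models that rose and 0.56 for those that fell, with quartiles of 0.11 and 0.83, and 0.23 and 0.87. Over all tested models the median T0 place was 0.53, with wider quartiles of -0.51 and 1.51. The T0 level was nearer to 6 h for 165 of the 320 and 143 of the 261 models, or 51.6% and 54.8%, against 50.9% of all tested. The places spread widely, with 55 and 40 models between 0.4 and 0.6, so a split at 0.5 cuts through a populated range. Whether there are 2 kinds of model was not tested. The split serves below to describe the ends. Measured from T0, the models that rose had a median log2 difference of -0.77 by 1 h, 0.40 by 3 h and 0.72 by 6 h, and those that fell had 0.91, -0.49 and -0.71. At 1 h, 61 of the 320 models (19.1%) and 227 of the 261 (87.0%) were above T0, against 50.7% of all tested. A choice of models by the difference between 1 h and 6 h tends in itself to place T0 between them.

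For the 165 models that rose and had T0 nearer to 6 h, 3 h was nearer to 6 h as well in 157. From T0, their median log2 difference was -1.28 by 1 h, -0.03 by 3 h and 0.27 by 6 h. Their reads made up 4.29% ± 0.872 of those outside the pair in the T0 libraries, 1.72% ± 0.133 after 1 h, 4.08% ± 0.305 after 3 h and 4.59% ± 0.386 after 6 h (SD, n = 3). Of the 143 models that fell and had T0 nearer to 6 h, 126 had 3 h nearer to 6 h too, and the medians were 1.51, 0.08 and -0.28. Their reads made up 1.43% ± 0.233 in the T0 libraries, then 4.41% ± 0.614, 1.29% ± 0.0824 and 1.12% ± 0.0627 at 1, 3 and 6 h. In both sets the 3 h libraries, which chose none of these models, were already close to the T0 share.

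The other 155 models that rose were, in the median, near their T0 level at 1 h. From T0, their median log2 difference was -0.14 by 1 h, 1.22 by 3 h and 1.46 by 6 h. Their reads made up 2.14% ± 0.167 in the T0 libraries, 1.94% ± 0.216 after 1 h, 5.89% ± 0.208 after 3 h and 6.41% ± 1.33 after 6 h (SD, n = 3). At 6 h this share ran from 5.08% in replicate 1 to 7.75% in replicate 2, the widest spread of the 4 sets. The other 118 models that fell were in the median close to T0 at 1 h, with medians of 0.24, -1.11 and -1.22 and shares of 1.74% ± 0.120, 1.91% ± 0.133, 0.680% ± 0.0201 and 0.608% ± 0.0687 in the same order. The T0, 1 h and 6 h values of the 4 sets follow from how the sets were formed, and only the 3 h values do not.

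**Figure D4:**
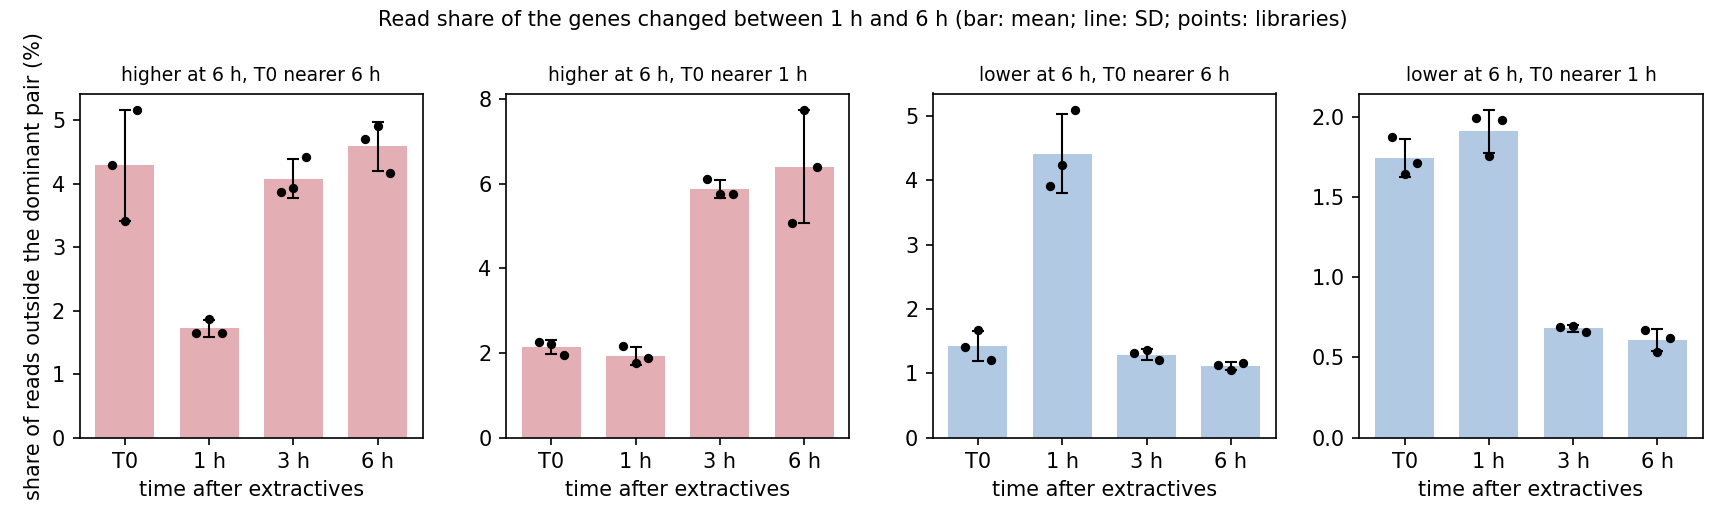
Share of the reads outside the dominant pair (percent, vertical axis, each panel with its own scale from 0) held by the 4 sets of changed models at T0, 1 h, 3 h and 6 h, with bars for the mean, lines for the SD and points for the 3 libraries. From left to right are 165, 155, 143 and 118 models, and in each panel the 3 h bar is close to the 6 h bar, as with 5.89% and 6.41% in the second.

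The comparison of 3 h with T0 has no library in common with that of 6 h with 1 h. The dominant pair held 4.31%, 46.8% and 50.9% of total gene reads in the T0 replicates 1 to 3. In the 3 h replicates it held 3.12%, 15.7% and 4.12%. In both comparisons replicates 2 and 3 of the earlier time had larger pair shares and fewer reads than every library of the later time. Replicate 1 did not. The part of these library traits in the overlap was not tested. At 3 h against T0, 86 of the 320 models that rose between 1 h and 6 h were also called higher in the same edgeR fit, 26.9% of them and 14.7% of the 587 models called higher at 3 h. The background of this call was 4.97% of all tested models. Of the 261 that fell, 69 were called lower at 3 h against T0, 26.4% of them and 12.6% of the 546 models called lower, beside a background of 4.62%. In the opposite direction, 10 of the 320 were called lower and 16 of the 261 higher. Same-numbered T0 and 3 h libraries deviated together, so this contrast was also fitted with the replicate number as a block. T0 replicate 1 and 3 h replicate 3 did so too, so a pairing by number is not established. T0 replicate 1 and 3 h replicates 1 and 3 had the most reads and the smallest pair shares of these 6 libraries. The same-numbered T0 replicate 3 and 3 h replicate 3 were unlike in both. The part of depth and pair share in these deviations was not tested. With the 6 libraries of T0 and 3 h alone and that block, 127 of the 320 were called higher (39.7%, background 11.4%) and 99 of the 261 lower (37.9%, background 10.5%). The same 6 libraries without the block gave 69 and 48 (21.6% and 18.4%), beside backgrounds of 3.35% and 2.91%. The number called over all tested models also depended on single libraries, from 9.59% in both directions together to 4.07% without 3 h replicate 1, 5.08% without 3 h replicate 3 and 5.69% without T0 replicate 3. The share of the changed models called the same way was then 20.1%, 20.4% and 21.5%. The models called were more abundant than the average tested model, and the part of abundance in these shares was not tested.

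The share of the dominant pair differed between the libraries at 1 h, so the sets were also looked at library by library. The 320 models had a median distance from the 6 h mean of -1.41, -1.49 and -1.46 on the log2 scale in the 1 h replicates 1 to 3, where the pair held 9.61%, 65.9% and 45.0% of the reads. The 261 models had 1.57, 1.50 and 1.76. The models were chosen for a difference between these same libraries, so a distance of this size in each of them follows from the choice. With the log2 share of the pair as a covariate, 313 models were higher and 227 lower, and 475 of the 581 calls were kept. With 1 h replicate 1 alone against the 6 h libraries, 25 models were higher and 38 lower. That fit assumes that the lone library varies like those of the other groups.

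In each direction 2 models are given in full, the one with the largest fold change and the one with the largest change in its share of the reads, among called models whose libraries do not overlap and that reach 10 CPM at one time. None shared reads with another model. The sources used here give no function for them.

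Model 2908637 (861 nt) lost the largest share of the reads among the models that fell. It was at 2298, 2477 and 4147 CPM in the 1 h replicates 1 to 3 and at 670.5, 280.4 and 568 CPM at 6 h. Every 1 h library was over 3 times the highest at 6 h. At T0 it was at 417, 623 and 427 CPM and at 3 h at 483, 525 and 396 CPM, so the T0, 3 h and 6 h libraries overlapped and 1 h stood alone. It fell 5.87-fold between 1 h and 6 h (log2 fold change -2.55, SE 0.373, edgeR adjusted p = 0.000937). Its mean share of the reads outside the pair went from 0.402% ± 0.107 to 0.0677% ± 0.0301 (SD, n = 3).

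Model 2990417 (687 nt) had the largest fold change of the models that fell. It was at 249.98, 163 and 379.7 CPM at 1 h and at 3.24, 7.18 and 3.80 CPM at 6 h, from 24, 43 and 38 reads. The 3 h libraries, at 1.95, 13.6 and 1.49 CPM, spanned the 6 h range, and the T0 libraries were at 3.92, 43.2 and 13.1 CPM. T0 and 6 h overlapped, and every 1 h library was above all 9 others. The fall from 1 h to 6 h was 56.6-fold (log2 fold change -5.82, SE 0.890, edgeR adjusted p = 0.00137).

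Model 2966528 (474 nt) gained the largest share of the reads among the models that rose. It was at 569.7, 404 and 660.1 CPM at 1 h and at 3214, 11004 and 7027 CPM at 6 h. At T0 it was at 488, 1229 and 281 CPM, a range that takes in the 1 h libraries, and at 3 h it had already reached 4673, 5354 and 3526 CPM. It rose 13.0-fold between 1 h and 6 h (log2 fold change 3.70, SE 0.561, edgeR adjusted p = 0.00127). Its share of the reads outside the pair went from 0.0743% ± 0.0147 to 0.911% ± 0.456 (SD, n = 3). The 3 libraries at 6 h differed by more than 3 times among themselves, and the lowest of them still lay above the highest at 1 h.

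Model 2915771 (1257 nt) had the largest fold change of the models that rose and the weakest call of the 4. It was at 3.96, 10.6 and 3.34 CPM at 1 h, from 36, 11 and 7 reads, and at 30.4, 280.2 and 46.9 CPM at 6 h. Replicate 2 stood far above the other 2 at 6 h, as did 3 h replicate 2 with 80.9 CPM against 4.82 and 7.09 CPM. At T0 the model was at 4.66, 4.32 and 3.27 CPM. On the log2 CPM line its 3 h place was 0.37, whereas the fitted log2 fold change was 2.58 from 1 h to 3 h and 1.98 from 3 h to 6 h, and neither passed (edgeR adjusted p = 0.218 and 0.996). The rise between 1 h and 6 h was 23.6-fold (log2 fold change 4.56, SE 1.11, edgeR adjusted p = 0.0256). Without 6 h replicate 2 the log2 fold change was 2.92 with an edgeR adjusted p of 0.117, and with 1 h replicate 1, 2 or 3 left out that p was 0.133, 0.0581 or 0.127. Over 31 alternatives the call was lost in 10, with adjusted p-values from 0.00178 to 0.499 by edgeR, DESeq2 or limma-voom.

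**Figure D5:**
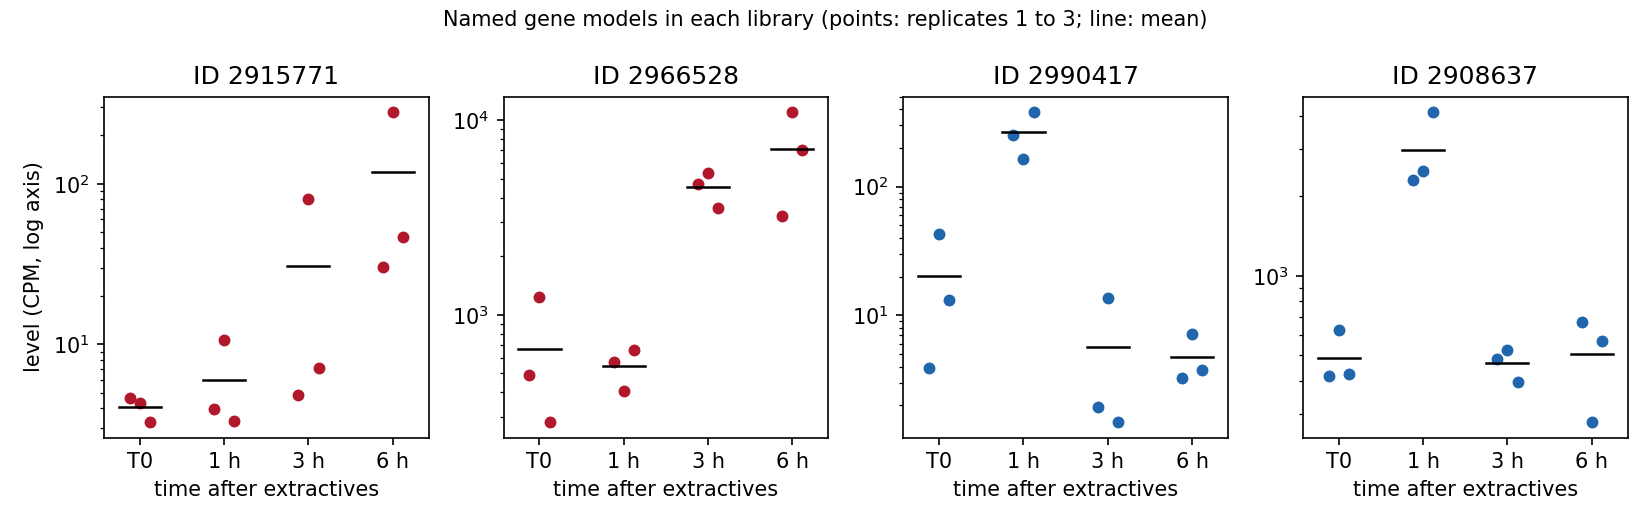
Level in CPM (vertical axis, log scale, each panel with its own range) of 4 gene models at T0, 1 h, 3 h and 6 h, with points for replicates 1 to 3 and a line at the mean. Models 2990417 and 2908637 are high in the 1 h libraries only, model 2966528 is high at 3 h and 6 h, and model 2915771 has 1 high library at 3 h and at 6 h, both replicate 2.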

How the data were processed

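RNA from 12 mycelium cultures was sequenced, and samples were grouped by the time in their labels (T0, 1 h, 3 h and 6 h, with 3 cultures each). Every sample has its own table, in which the authors list 13602 protein IDs with, per the file headers, the counts of unique and of total gene reads and an RPKM value. Aligner, genome build, annotation and strand use: not given in the sources used here. The deposited RPKM served only to recover gene lengths, and these lengths gave back every RPKM value to a relative gap of 2.09e-08. Reads shared between models made up 0.641% to 1.06% of a library.

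Total gene reads of all 12 libraries were fitted in R 4.3.3 with edgeR 4.0.16 (glmQLFit, glmQLFTest, TMM, filterByExpr, 11813 models kept), with the group as the only term and 8 residual degrees of freedom. Same-numbered T0 and 3 h libraries correlated in their deviations from the group means at 0.347, 0.412 and 0.199, so their contrast was fitted with the number as a block too. Pairs of unlike number ran from -0.442 to 0.328. The highest of these, T0 replicate 1 with 3 h replicate 3, was above the 0.199 of a same-numbered pair. These values do not establish that the number pairs the cultures. The main contrast was 6 h minus 1 h, with neither T0 nor 3 h in it. An SE is the size of the log2 fold change divided by the root of F. log2 CPM uses a prior count of 2. Alternatives used DESeq2 1.42.0, limma 3.58.1 and those named with their values. Scripts were tested on simulated counts.

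Models given in full were to be 12 in each direction had the IDs come with names, and 2 in each direction otherwise, which applied. Gene lists by product were planned as well and could not be used. The comparison, the rules and the alternatives were chosen with earlier results of these data known. Replicates of a time differed beyond sampling noise (smallest chi-square per degree of freedom 13.6), and all were kept.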

Additional observations from a re-analysis of the deposited data

How the results depend on the processing

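The 581 models called came to 1028 by DESeq2 (552 higher and 476 lower), 890 with the length trend removed (481 and 409), 195 at an adjusted p under 0.01 (110 and 85), 189 against a 1.5-fold change (104 and 85) and 83 with reads thinned to 729521 per library (46 and 37), which also left fewer models to test. They came to 236 without 1 h replicate 2 and 6 h replicate 3 (123 and 113). Added after the data were seen, leaving out 6 h replicates 2 and 3 gave 88 (59 and 29) and leaving out 1 h replicates 2 and 3 gave 63 (25 and 38), each with 1 library left on a side. With any 1 of the 12 libraries left out, the count ran from 230 to 744, that of higher models from 125 to 401 and that of lower models from 101 to 343. Both other scalings, all 3 other filters on low levels, limma-voom, unique reads, the dominant pair left out or as a covariate, 9 libraries without T0 and 6 libraries alone stayed within 1.5 times of 581.

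Same-numbered 1 h and 6 h libraries did not deviate together (correlations of -0.02, -0.00 and -0.01). These values neither show nor exclude a pairing by number, and the replicate block gave 463 models (241 and 222). The share of called models with 3 h nearer to 6 h was 91.9%, against 88.2% by DESeq2, 85.9% with the pair as a covariate and 86.4% to 96.4% with 1 of the 6 libraries left out of the calls. The share with T0 nearer to 6 h was 53.0%, and 46.4% to 61.0% with 1 left out, so its side of 50% was not stable. The share called the same way at 3 h against T0 was 26.7% beside 9.59% of all tested, and with 1 of the 12 left out it ran from 20.1% to 30.5% beside 4.07% to 10.1%. Added after the data were seen, the replicate block gave 24.4% beside 8.26% over 12 libraries and 38.9% beside 21.95% over the 6 of T0 and 3 h, where no block gave 20.1% beside 6.26%. The difference in the share of the dominant pair, 6 h minus 1 h, was -25.3 percentage points and ran from -40.6 to -12.4 with 1 of the 6 left out. Apart from model 2915771, model 2966528 lost its call without 6 h replicates 2 and 3 and without 1 h replicates 2 and 3, and models 2990417 and 2908637 without 6 h replicates 2 and 3. Depth limits low models most, and 6 h replicate 3 lists many of them at 0.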
